A study of Mus musculus with 60 samples.

Results

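The 10 prefrontal cortex libraries of wild-type (WT) mice on 2 diets were compared, 5 from mice on a diet lacking vitamin B6 (VB6) and 5 from mice on a normal diet, out of 60 libraries in the series. They were chosen by their labels for genotype, tissue and diet. The lacking diet held 5 µg of VB6 in each 100 g of pellets and the normal diet held 1.4 mg in each 100 g, and mice ate them from 8 to 12 weeks of age. The other libraries came from the striatum and hippocampus of the same 10 mice and from all 3 regions of mice with a Glo1 knockout (KO) on either diet. Glo1 encodes glyoxalase I, which detoxifies methylglyoxal, and the title of the series concerns loss of that detoxification. Every WT library carried batch label 2 and every KO library batch label 1, so diet was compared within 1 batch, whereas genotype and batch cannot be told apart. Each library was made from poly(A) RNA of a single mouse, and the mice are named below by the numbers in the labels.

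Vitamin B6 is taken up as several vitamers, which pyridoxal kinase phosphorylates on the way to pyridoxal phosphate, the active form. Pyridoxal phosphate is the cofactor of transaminases, of amino acid decarboxylases and of enzymes of serine, sulfur, sphingolipid and heme metabolism. In brain it is needed to make GABA, dopamine and serotonin, and severe deficiency is known to cause seizures.

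The VB6 level in the labels, whose source material is not given there, was 64.2 ± 7.91 ng/µl (SD, n = 5) on the normal diet and 3.88 ± 0.656 ng/µl (n = 5) on the lacking diet. The ranges did not overlap (58.25 to 77.5 against 3.02 to 4.86 ng/µl; exact permutation test, two-sided, p = 0.00794, the smallest that 5 against 5 mice allow; 0.0238 after Benjamini-Hochberg (BH) adjustment over 3 measures). RNA integrity numbers were 8.26 ± 0.365 and 8.40 ± 0.316 (exact permutation p = 0.595), and library totals ran from 8704715 to 11485734 counts with no difference beyond their spread (exact permutation p = 0.611). In CPM, the counts scaled to library size with TMM factors, 3 counts corresponded to 0.259 to 0.363 CPM, a floor that covers counting error only. Excitatory neuron markers summed to 7500.2 to 8045 CPM per library, markers of striatal projection neurons to 244 to 350.2 CPM and those of choroid plexus and ependyma to 5.2 to 11.3 CPM. Glo1 was at 40 ± 4.18 CPM on the normal diet and 40 ± 4.44 CPM on the lacking diet (SD, n = 5 each). The library of mouse 241, on the lacking diet, stood apart from the others. It lay at -37.7 on the first principal component, which held 22.5% of the variance, while the other 9 libraries lay between -11.4 and 16.7. Many of the list medians and counts that it moves are also given without it, from a fit of the other 19 prefrontal libraries.

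No gene passed the threshold for a diet effect in WT prefrontal cortex. Of 21999 genes in the table, 13223 passed the low-count filter and were tested with edgeR, and 0 of them (0%) had a BH-adjusted p under 0.05. The smallest unadjusted edgeR p was 0.00126. At an unadjusted p under 0.05 there were 300 genes (2.27%), of which 154 (1.16%) were higher and 146 (1.1%) lower on the lacking diet, where an even spread of p-values would place 661. DESeq2 also gave 0 genes past the adjusted threshold and 390 at an unadjusted p under 0.05, and limma on log2(RPKM + 1) gave 0 and 335. Without mouse 241 the edgeR counts were 0 and 461. Across all tested genes the median log2 fold change (lacking over normal) was 0.0034, with 51.7% of genes higher and 48.3% lower. In 48 genes (0.363%) the CPM ranges of the diets did not overlap.

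**Figure D1:**
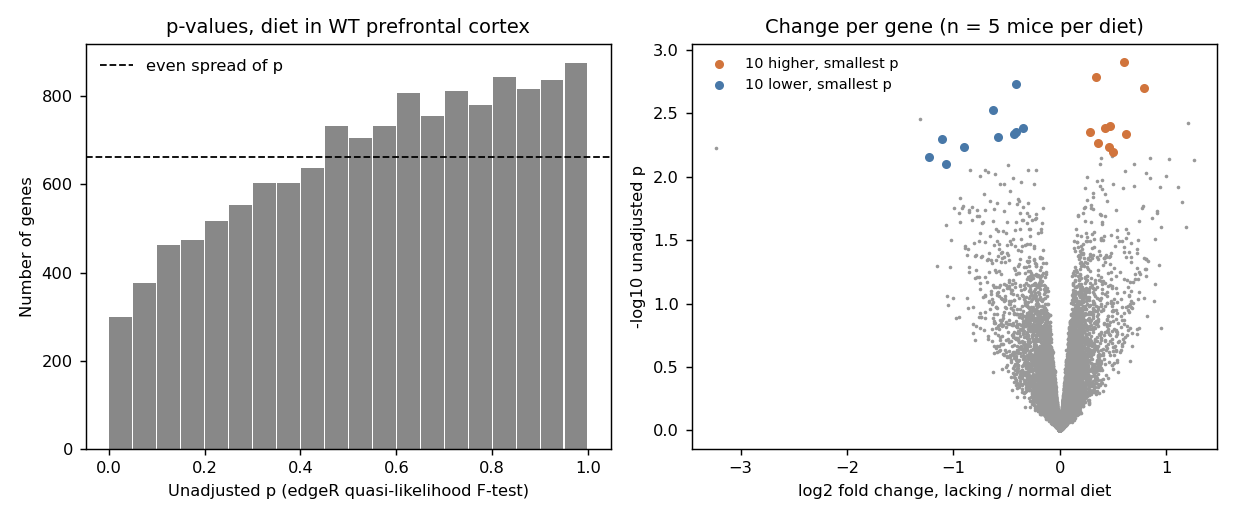
Left, number of tested genes in each of 20 bins of unadjusted p, with a dashed line at an even spread (661 per bin); right, log2 fold change against -log10 p for each gene, with the 20 named genes coloured. The lowest bin holds 300 genes, fewer than the line, and the counts increase toward p of 1, where the highest bin holds 875.

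The genes closest to a difference were of low to moderate abundance. They are the 10 higher and the 10 lower genes with the smallest p among genes with a mean of at least 1 CPM, so their fold changes are the extremes of a ranking and are given as a description. Their mean levels ran from 1.02 to 22.6 CPM, their absolute log2 fold changes from 0.28 to 1.23 and their unadjusted edgeR p-values from 0.00126 to 0.0079, and each had an edgeR adjusted p of 1.0, as did every other gene named below in the same fit. The diets did not overlap in 8 of the 20, with 4 genes in each direction, against 48 (0.363%) of all tested genes. Choice of the 20 by p in these same libraries favours such separation.

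Col27a1, a fibrillar collagen gene (chromosome 4, 63214009 to 63334991 of GRCm38), led the higher genes. It was at 3.46, 3.19, 2.73, 3.28 and 3.52 CPM in normal-diet mice 272, 273, 283, 286 and 317, and at 5.56, 5.01, 4.72, 4.92 and 4.46 CPM in lacking-diet mice 225, 226, 241, 246 and 259 (log2 fold change 0.61, SE 0.17, 95% interval 1.2- to 1.94-fold). The lowest lacking-diet library lay above the highest normal-diet library. In the same order of mice, Emd, which encodes the inner nuclear membrane protein emerin, was at 21.2, 18.5, 15.5, 15.4 and 18.4 CPM against 21.6, 21.8, 22.7, 24.3 and 22 CPM (log2 fold change 0.34, SE 0.10, 95% interval 1.1- to 1.45-fold). The groups of Emd were separated by a narrow gap, and 14% of the 75-base stretches of its transcripts also occur in other genes, so its count is uncertain. Nup43, a subunit of the nuclear pore, was at 2.23, 1.64, 1.76, 1.99 and 1.99 CPM against 3.78, 2.94, 2.78, 4.27 and 2.91 CPM (log2 fold change 0.79, SE 0.23, 95% interval 1.24- to 2.42-fold). Galnt3, whose enzyme starts mucin-type O-glycosylation, was at 3.13, 3, 2.15, 2.68 and 2.8 CPM against 3.78, 3.8, 4.11, 5.13 and 4.36 CPM (log2 fold change 0.62, SE 0.20, 95% interval 1.15- to 2.05-fold). Both are genes of low abundance, and every lacking-diet mouse lay above every normal-diet mouse.

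The other 6 higher genes overlapped between the diets. They were Tmem115 (a Golgi membrane protein, log2 fold change 0.48), Pigh (an enzyme subunit for glycosylphosphatidylinositol anchors, 0.43), Rbm7 (an RNA-binding subunit of the nuclear exosome targeting complex, 0.28), Pls1 (an actin-bundling plastin, 0.36), Hmcn1 (the extracellular matrix protein hemicentin, 0.46) and Chrna5 (a nicotinic acetylcholine receptor subunit, 0.50). Chrna5 was at 3.24, 6.29, 4.59, 5.66 and 4.79 CPM on the normal diet and 7.24, 7.08, 5.32, 7.91 and 7.27 CPM on the lacking diet, and Hmcn1 at 7.48, 7.26, 6.45, 6.95 and 7.4 against 12.7, 11.4, 5.93, 10.3 and 8.54 CPM. In both genes mouse 241 was the lowest lacking-diet library and lay within or below the normal-diet range.

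Among the lower genes, Atad2b, which encodes a bromodomain ATPase (chromosome 12, 4914404 to 5047396 of GRCm38), was at 25.9, 22.5, 27.4, 22.9 and 26.8 CPM on the normal diet and 18.3, 16.8, 20.9, 20 and 18.8 CPM on the lacking diet (log2 fold change -0.41, SE 0.12, 95% interval 0.635- to 0.891-fold). Rad9a, of the DNA damage checkpoint clamp, was at 5.92, 5.61, 7.13, 4.67 and 4.79 CPM against 4.62, 4.06, 3.02, 2.89 and 3.49 CPM (log2 fold change -0.63, SE 0.19, 95% interval 0.492- to 0.852-fold). In both genes every lacking-diet mouse lay below every normal-diet mouse, by a narrow gap for Rad9a. Tsc22d4, a TSC22-family transcription regulator, was at 17.6, 20.7, 22.1, 20.3 and 18.7 against 16.3, 14, 12.7, 15.1 and 15.7 CPM (log2 fold change -0.43, SE 0.14, 95% interval 0.609- to 0.905-fold). Tram2, a translocation-associated membrane protein gene, was at 2.57, 1.55, 2.64, 2.28 and 1.35 against 0.63, 1.3, 1.33, 1.18 and 1.07 CPM (log2 fold change -0.90, SE 0.31, 95% interval 0.346- to 0.827-fold). The Tram2 groups were separated by less than the spread within either of them. The lower genes whose groups overlapped were Bend4 (-0.35), Apbb1ip (a Rap1 effector in integrin signalling, -0.41), Nat8f4 (-0.58), Fgf7 (a fibroblast growth factor, -1.11), Fam72a (-1.23) and Gipr (the receptor of glucose-dependent insulinotropic polypeptide, -1.07). Fgf7, at 1.68, 2.03, 2.05, 1.39 and 3.25 CPM against 1.57, 0.777, 0.967, 0.962 and 0.582 CPM, Fam72a and Gipr had the widest intervals of the 10, and the lowest libraries of Fam72a and Gipr lay below the floor of 3 counts.

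**Figure D2:**
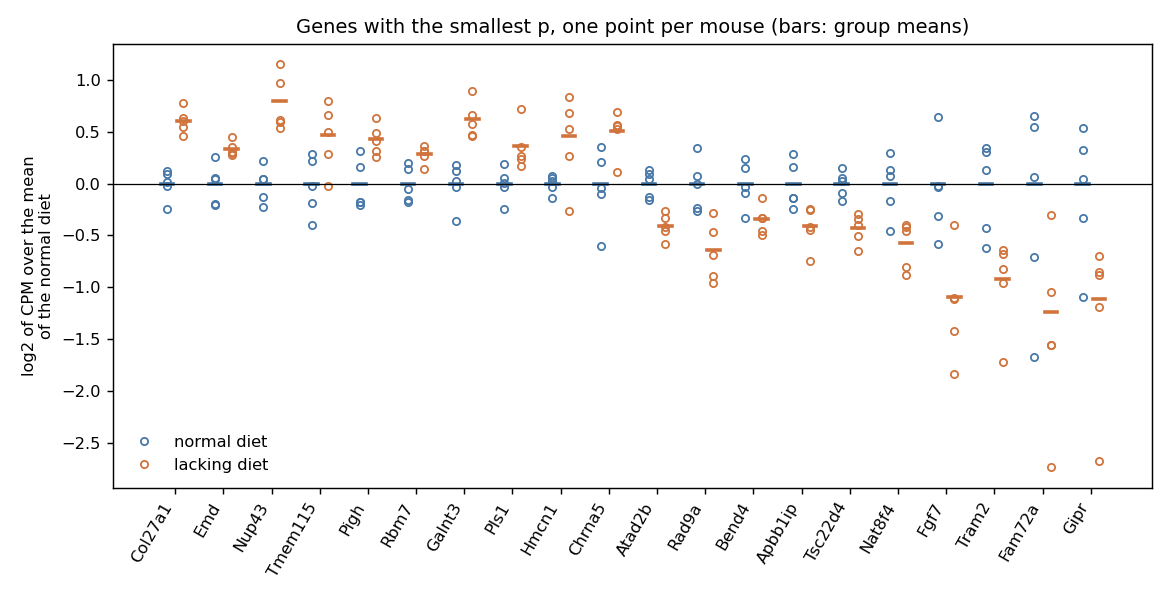
CPM in each mouse for the 20 genes with the smallest p, as log2 over the mean of the normal diet (0), with blue circles for the normal and orange for the lacking diet, 5 mice each, and bars at group means. The diets are separate in Col27a1, Emd, Nup43, Galnt3, Atad2b, Rad9a, Tsc22d4 and Tram2 and overlap in the other 12 genes.

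What the libraries can say about the size of a diet effect was measured by 2 one-sided tests per gene against a stated margin, adjusted by BH over all tested genes. A gene is called bounded within a margin where both tests passed. In these terms 11056 genes (83.6%) were bounded within 1.5-fold, 6664 (50.4%) within 5/4-fold and 12695 (96%) within 2-fold. The 528 genes not bounded within 2-fold had a median level of 1.11 CPM, and 202 of them lay under 1 CPM. The median half-width of the 95% interval of a gene's change was 1.19-fold, with the 10th percentile at 1.11-fold and the 90th at 1.51-fold. With intervals set at the Bonferroni level over all genes, the median half-width was 1.62-fold, 8788 genes lay wholly within 2-fold and 3893 within 1.5-fold.

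This resolution was finer at higher abundance. Of the 320 tested genes under 1 CPM, 0 were bounded within 1.5-fold and 118 within 2-fold, with a median half-width of 1.93-fold. Of the 3943 genes at 1 to 10 CPM, 2150 (54.5%) were bounded within 1.5-fold, with a median half-width of 1.38-fold. Of the 6593 genes at 10 to 100 CPM, 6542 (99.2%) were so bounded, at a median half-width of 1.17-fold. Of the 2367 genes above 100 CPM, 2364 were bounded within 1.5-fold and 2299 within 5/4-fold, at a median half-width of 1.11-fold. The fitted change exceeded 2-fold in 18 genes and 1.5-fold in 225 genes, all of them under 10 CPM.

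**Figure D3:**
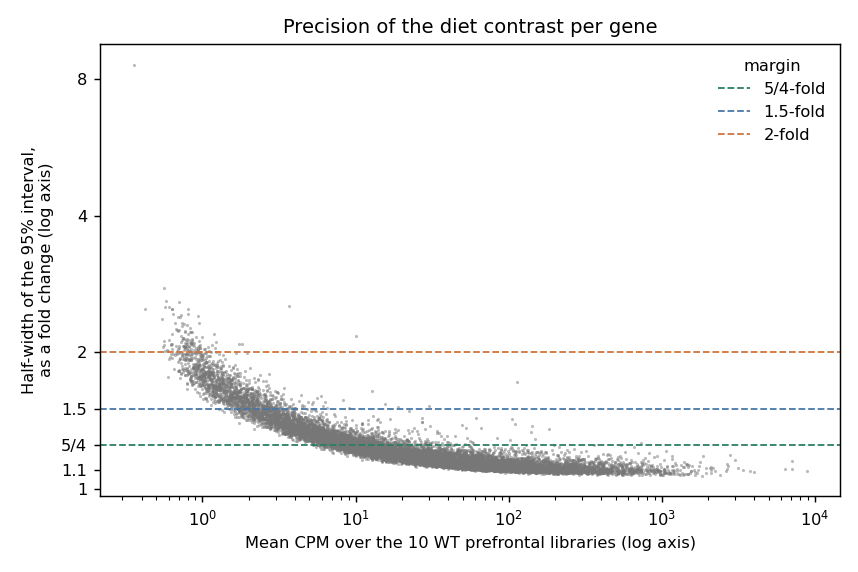
Half-width of the 95% interval of the diet effect, as a fold change on a log axis, against mean CPM over the 10 libraries on a log axis, 1 point per tested gene, with dashed lines at 5/4-, 1.5- and 2-fold. Half-widths narrow from a median of 1.93-fold under 1 CPM to 1.11-fold above 100 CPM.

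The genes that take up, activate and recycle VB6 showed no diet effect past the threshold. Of the 10 genes listed, 9 were in the table and tested, 5 of them higher and 4 lower, with a median log2 fold change of 0.01 against 0.0034 over all tested genes. At an unadjusted p under 0.05 there were 0 of 9 (2.27% over all genes). All 9 were bounded within 2-fold and 7 within 1.5-fold. Without mouse 241, 4 of the 9 were higher at a median of -0.03.

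Pdxk, the kinase that phosphorylates the vitamers (chromosome 10, 78436747 to 78464948 of GRCm38), was at 116, 123, 107, 118 and 126 CPM on the normal diet and 125, 121, 109.8, 128 and 127 CPM on the lacking diet (log2 fold change 0.05, SE 0.06, 95% interval 0.947- to 1.14-fold). The 2 ranges largely coincided, and the gene was bounded within 5/4-fold. Prosc, named Plpbp in RefSeq, encodes the protein that binds pyridoxal phosphate and keeps its level; it was at 60.6, 63.4, 55.7, 57.5 and 65.6 CPM against 67.8, 59.9, 67.4, 58.8 and 77.9 CPM (log2 fold change 0.13, SE 0.08, 95% interval 0.976- to 1.23-fold). Mice 225, 241 and 259 exceeded the normal-diet range. Alpl, the phosphatase that frees vitamers for uptake, had a log2 fold change of 0.07 (0.806- to 1.37-fold). The thiamine transporter genes Slc19a2 and Slc19a3, whose products have been reported to carry pyridoxine, had -0.07 (0.782- to 1.16-fold) and 0.01 (0.774- to 1.31-fold). The aldehyde oxidase genes Aox1, Aox3 and Aox4, of an enzyme family that oxidises pyridoxal, had -0.09, -0.24 and -0.11, and Aox4 reached 1.17 CPM at most.

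The enzymes that use pyridoxal phosphate also gave no gene past the threshold, with most fitted changes slightly below 0. Of 52 listed genes, 40 were tested, and 11 were higher and 29 lower (27.5% higher, against 51.7% of all tested genes), at a median log2 fold change of -0.04. At an unadjusted p under 0.05 there were 0 of 40. This lean rested on mouse 241: without it 19 of the 40 were higher and the median was -0.0093. Bounded within 5/4-, 1.5- and 2-fold were 20, 30 and 38 of the 40 (75% within 1.5-fold, against 83.6% of all genes).

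For the enzymes of transmitter metabolism the intervals were narrow. Gad1, glutamate decarboxylase 1, which makes GABA (chromosome 2, 70561303 to 70602014 of GRCm38), was at 341, 325, 285, 339 and 355 CPM on the normal diet and 303, 307, 354, 334 and 299 CPM on the lacking diet (log2 fold change -0.04, SE 0.06, 95% interval 0.888- to 1.06-fold). Gad2, the second glutamate decarboxylase, was at 333, 341, 286, 339 and 375 CPM against 329.6, 310.5, 398, 341 and 296 CPM (log2 fold change -0.00043, SE 0.08, 95% interval 0.895- to 1.12-fold). In both genes the highest or second highest library was mouse 241 and the lowest was mouse 283 on the normal diet, so diet did not order the mice. Abat, the transaminase that breaks GABA down, had a log2 fold change of -0.02 (0.89- to 1.09-fold). Ddc, which makes dopamine and serotonin and is at a few CPM in cortex, had -0.11 with a wider interval of 0.638- to 1.35-fold. Hdc, which makes histamine, was not tested.

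Among 10 tested aminotransferases 3 were higher and 7 lower, and 8 were bounded within 1.5-fold. Gpt, alanine aminotransferase, was at 0.112, 1.26, 1.95, 2.48 and 0.813 CPM against 2.31, 2.59, 1.45, 1.92 and 1.36 CPM (log2 fold change 0.54, SE 0.38, 95% interval 0.843- to 2.49-fold). It was 1 of 2 members not bounded within 2-fold. The other was Gcat, which cleaves the threonine product 2-amino-3-ketobutyrate to glycine, at 1.23, 2.71, 1.56, 1.49 and 1.35 CPM against 3.88, 1.73, 1.21, 2.46 and 2.52 CPM (log2 fold change 0.50, SE 0.30, 95% interval 0.924- to 2.15-fold). Both genes stayed under 4 CPM in every library, with overlapping ranges, and 10.1% of the 75-base stretches of Gcat occur in another gene. Of 7 tested serine, glycine and sulfur amino acid enzymes, 2 were higher and 5 lower, among them Csad of taurine synthesis (-0.18, 0.712- to 1.09-fold). All 3 glycogen phosphorylases were bounded within 1.5-fold, with Pygl, the liver form, at -0.24 (0.646- to 1.11-fold).

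Etnppl, an astrocyte enzyme that breaks down phosphoethanolamine, had the smallest p of the group. It was at 34.5, 34.1, 63, 28.3 and 58.7 CPM on the normal diet and 40.7, 26.2, 34.2, 36.9 and 37.3 CPM on the lacking diet (log2 fold change -0.32, SE 0.19, 95% interval 0.612- to 1.04-fold). Mice 283 and 317 on the normal diet lay above all others, and the remaining 8 mice overlapped. Sepsecs, which makes selenocysteine on its transfer RNA, was at 25.6, 23.1, 23.3, 20.8 and 21 against 23.8, 23.3, 32, 22.4 and 26.5 CPM (log2 fold change 0.17, SE 0.10, 95% interval 0.973- to 1.3-fold), with mouse 241 the highest. Of the sphingolipid and heme enzymes, 4 of 5 were bounded within 1.5-fold. Odc1, the first enzyme of polyamine synthesis, was bounded within 5/4-fold.

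**Figure D4:**
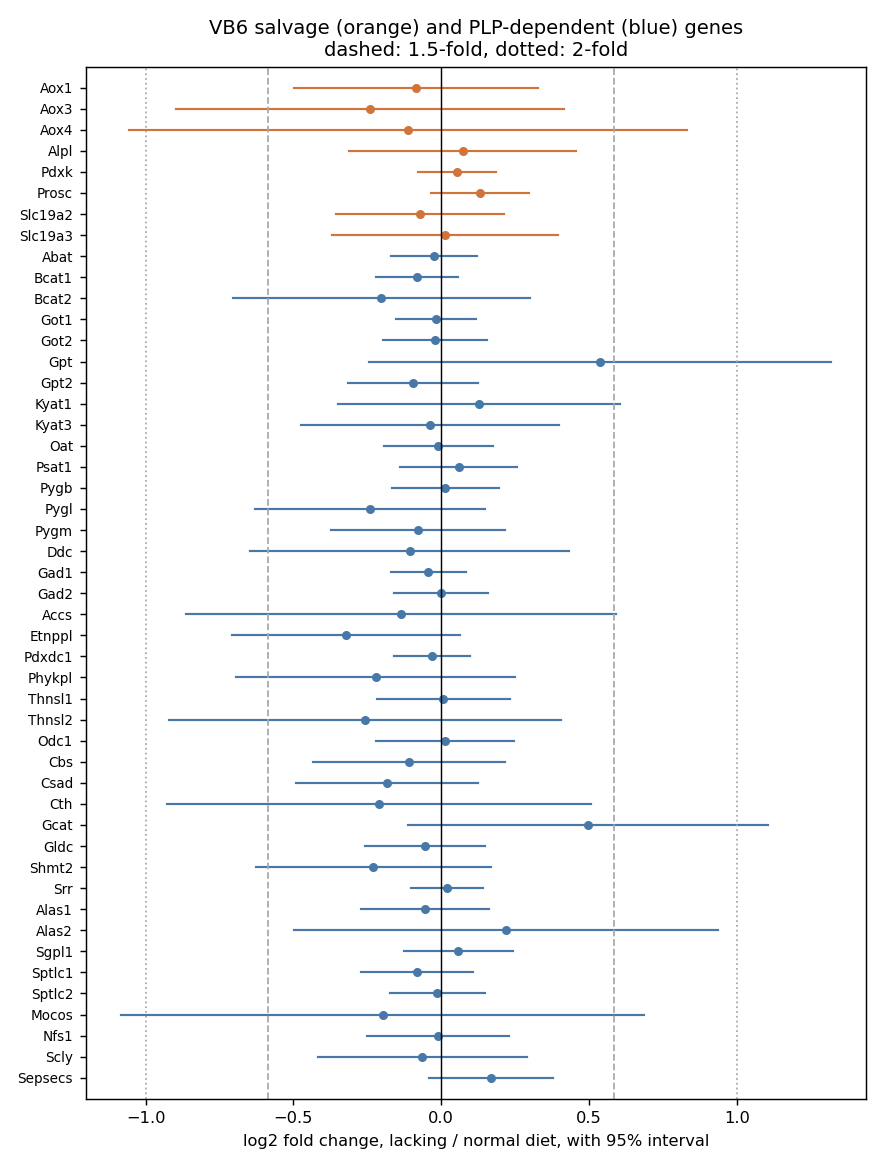
log2 fold change (lacking over normal diet, 5 mice each) with its 95% interval for 8 of the 9 VB6 salvage and transport genes (orange) and 40 pyridoxal phosphate-dependent enzyme genes (blue); dashed lines mark 1.5-fold and dotted lines 2-fold. Every interval includes 0, and Gpt and Gcat reach furthest to the right.

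GABA and glutamate receptor genes were measured tightly, and monoamine receptor and breakdown genes less so. For these and the lists that follow, values after gene names are log2 fold changes and ranges in fold are 95% intervals. Over all tested genes 51.7% were higher, 2.27% were at an unadjusted p under 0.05 and 83.6% were bounded within 1.5-fold. All 15 tested GABA receptor subunit genes and all 24 tested glutamate receptor genes were bounded within 1.5-fold, with 10 and 13 higher and median log2 fold changes of 0.01 and 0.0069. Without mouse 241 both medians were -0.02, with 5 of 15 and 11 of 24 higher. The smallest p in each was for Gabrd (0.12, 0.915- to 1.29-fold), Gabra5 (-0.07, 0.849- to 1.07-fold), Grik3, a kainate receptor subunit and the 1 of these at an unadjusted p under 0.05 (0.22), and Grin3a (0.13, 0.997- to 1.2-fold). Among 5 tested genes of GABA transport and breakdown, the transporter genes Slc6a13 (-0.75) and Slc6a11 (0.16) were at an unadjusted p under 0.05, in opposite directions (2 of 5, against 2.27% of all genes). Of 24 monoamine receptor and breakdown genes 13 were higher and 11 lower, 0 at an unadjusted p under 0.05. Within 1.5-fold 18 of these 24 were bounded. The largest values were those of Htr6 (-0.86) and Drd2 (0.64), both under 1 CPM on average. Of the 8 kynurenine pathway genes only Ido2 (0.73) and Tdo2 (-0.41) were abundant enough to test, and neither was bounded within 2-fold. Ido2 was at an unadjusted p under 0.05. All 35 synaptic vesicle and release genes were bounded within 1.5-fold, 31 of them within 5/4-fold, with Unc13c at 0.12 and Syt4 at 0.09. The synaptic median was 0.0039 with mouse 241 and 0.02 without it.

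Energy metabolism gave medians close to 0. Of 76 tested nuclear subunit genes of oxidative phosphorylation, 34 were higher and 42 lower at a median log2 fold change of -0.0050, 73 were bounded within 1.5-fold and all within 2-fold; Atp5k (-0.28) and Ndufb2 (-0.16) had the smallest p. The 13 mitochondrially encoded protein genes were listed with 0 counts in all libraries and were not analysed here. All 36 genes of glycolysis and the tricarboxylic acid cycle were bounded within 1.5-fold, with 19 higher at a median of 0.0031, and with Pdhb at -0.11 and Dlst at -0.11. Without mouse 241, 25 of these 36 were higher at a median of 0.05, and 39 of the 76 oxidative phosphorylation genes at a median of 0.0064. Of 12 genes of methylglyoxal and carbonyl removal, 4 were higher and 8 lower, 11 bounded within 1.5-fold, with Akr1b10 at 0.27 and Akr7a5 at -0.35. Their median was -0.03, and without mouse 241 it was 0.02 with 7 of 12 higher. Glo1 itself was at 42.3, 42.1, 35.2, 36 and 44.5 CPM against 35.9, 40, 47.5, 38.4 and 38.3 CPM in the 5 mice of each diet (log2 fold change -0.0012, 0.822- to 1.21-fold). These ranges overlapped throughout.

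One-carbon, antioxidant and stress genes were likewise without a call. Of 21 serine and one-carbon genes 11 were higher and 10 lower, with the smallest p in Mthfd2l (-0.25, 0.685- to 1.03-fold). Of 41 glutathione and antioxidant genes 21 were higher and 20 lower. Gpx7, a glutathione peroxidase of the endoplasmic reticulum (-0.92, 0.313- to 0.898-fold), was the 1 at an unadjusted p under 0.05, and Gpx4 was at 0.16. Of 16 integrated stress response genes 6 were higher and 10 lower, with Ppp1r15a at -0.29 and Ddit3 at -0.23. The 13 glucocorticoid-responsive genes split 6 to 7, with Pdk4 at -0.17 and Sult1a1 at 0.22. The medians of these 4 lists were 0.0056, 0.0057, -0.01 and -0.0061 in this order, and without mouse 241 they were 0.0079, -0.0050, 0.01 and 0.0027. Leaving out that mouse, 9 of the 16 integrated stress response genes were higher.

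Of 30 heat shock and chaperone genes, 9 were higher and 21 lower (30% higher, against 51.7% of all genes) at a median of -0.02, and 29 were bounded within 1.5-fold. Without mouse 241, 9 of 30 were higher at a median of -0.05. In KO prefrontal cortex 27 of 30 were lower (median -0.10), in WT striatum 21 (median -0.07) and in WT hippocampus 22 (median -0.07). The WT striatum and hippocampus came from the same mice as the WT prefrontal cortex, so the WT contrasts are not independent. Calr, the endoplasmic reticulum chaperone calreticulin, was at 446, 458, 499, 489.8 and 525 CPM on the normal diet and 453, 418, 402, 427 and 469.8 CPM on the lacking diet (log2 fold change -0.16, SE 0.06, 95% interval 0.822- to 0.98-fold). The mice overlapped, with mouse 241 the lowest of the 10. Ahsa1, a cochaperone of Hsp90, was at -0.14. The diet effect on Calr, as a log2 fold change, was -0.19 in KO prefrontal cortex, -0.11 in WT striatum and -0.15 in WT hippocampus. The value in WT striatum had an unadjusted p above 0.05, the other 3 lay below it, and none passed the adjusted threshold.

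The mitochondrial ribosomal protein genes leaned downward by a small amount. Of 75 tested genes 23 were higher and 52 lower (30.7% higher, against 51.7% of all genes) at a median of -0.03, and 72 were bounded within 1.5-fold. Mrpl34 (-0.40) and Mrps14 (-0.28) were the 2 of 75 at an unadjusted p under 0.05, a share near the 2.27% of all genes. Without mouse 241, 34 of the 75 were higher and the median was -0.02. In KO prefrontal cortex, from other mice, 57 of 75 were lower at a median of -0.07. In WT striatum 36 of 76 were lower (median 0.0082) and in WT hippocampus 39 of 76 (median -0.01), both from the same mice as the WT prefrontal cortex. Of 82 cytosolic ribosomal protein genes 47 were higher and 35 lower (median 0.01), 80 bounded within 1.5-fold, with Rps13 at 0.17 and Rpl10a at 0.26. Of 36 proteasome subunit genes 14 were higher and 22 lower (median -0.01), with Psmb5 at -0.37 and Psmd6 at 0.15. Without mouse 241, 60 of the 82 cytosolic ribosomal genes were higher at a median of 0.05, and 21 of the 36 proteasome genes at a median of 0.02.

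Immediate early genes, which follow activity, varied among mice within each diet, and clock genes, which follow time of day, varied less. Of 26 immediate early genes 15 were higher and 11 lower (median 0.04), with only 16 bounded within 1.5-fold. Their summed level ran from 1376 to 2132 CPM on the normal diet and from 1352 to 2148 CPM on the lacking diet. Ier2 (-0.51, 0.464- to 1.06-fold) and Homer1 (0.18, 0.963- to 1.33-fold) had the smallest p. Of 19 circadian clock genes 14 were higher and 5 lower (median 0.03), and without mouse 241, 11 were higher at a median of 0.09. Within 1.5-fold 18 of the 19 were bounded. The summed level of the clock genes ran from 1787 to 1935 CPM on the normal diet and from 1870 to 2015 CPM on the lacking diet. Nfil3, a repressor of clock output, was at 4.69, 4.84, 9.87, 9.64 and 6.23 CPM against 4.93, 6.48, 2.54, 4.06 and 5.33 CPM (log2 fold change -0.58, SE 0.25, 95% interval 0.471- to 0.954-fold), and mice 283 and 286 on the normal diet carried the highest values. Bhlhe41 was at 0.26. The time of day at dissection is not given in the sources used here, and its part in these values was not tested.

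The lists furthest from 0 among those with at least 10 tested members were markers of cell types, in which, in bulk tissue, fewer cells of a type and less RNA per cell cannot be told apart. Of 10 marker genes of meninges and fibroblasts 9 were lower, at a median log2 fold change of -0.31, and 1 was at an unadjusted p under 0.05. Their summed level was 409.9 ± 52.9 CPM on the normal diet and 339 ± 46.5 CPM on the lacking diet (SD, n = 5 each), with ranges of 354 to 473 and 274 to 394 CPM. The mean log2 CPM of the list was 3.77 to 4.06 on the normal diet. On the lacking diet it was 3.96 in mouse 241 and 3.42 to 3.73 in the other 4 mice, so that the diets overlapped only through mouse 241. Without that mouse the median was -0.43.

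Slc6a13, a GABA and taurine transporter gene of meningeal cells (chromosome 6, 121300288 to 121337721 of GRCm38), was at 4.13, 3.87, 5.27, 2.98 and 4.88 CPM against 3.04, 2.42, 2.9, 2.24 and 2.04 CPM (log2 fold change -0.75, SE 0.27, 95% interval 0.406- to 0.876-fold). All lacking-diet mice but mouse 225 lay below the normal range. Igf2, a growth factor made in meninges and choroid plexus, was at 147, 134, 105, 117 and 131 CPM against 100.4, 71.1, 119.7, 84.2 and 92 CPM (log2 fold change -0.44, SE 0.23, 95% interval 0.531- to 1.02-fold). Mouse 241 alone of the lacking-diet mice lay inside the normal range. When mouse 241 was left out and only the 9 remaining WT libraries were fitted, an alternative chosen after seeing the data, Igf2 had a log2 fold change of -0.55 (SE 0.09) and an edgeR BH-adjusted p of 0.0728. When it was left out of the fit of all prefrontal libraries, the value was -0.54 (SE 0.23) with an edgeR adjusted p of 1.0. In the same list Igfbp2 was the 1 gene higher (0.04), and Col1a1 (-0.38), Col3a1 (-0.52), Lum (-0.32), Ogn (-0.30), Ptgds (-0.21), Dcn (-0.12) and Col1a2 (-0.05) were lower. In Igf2, 60.3% of the 75-base stretches of the transcripts also occur in another gene model. The list had a median of -0.11 in KO prefrontal cortex (7 of 10 lower), -0.37 in WT striatum (8 of 10 lower) and 0.24 in WT hippocampus (8 of 10 higher), the last 2 from the same mice. How much of the meninges each dissection held was not tested.

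Myelin genes leaned the other way. All 16 oligodendrocyte and myelin markers were higher, at a median of 0.14, with 0 at an unadjusted p under 0.05 and 14 bounded within 1.5-fold. Ermn, which encodes the oligodendrocyte protein ermin, was at 88.2, 74.5, 72.7, 66.8 and 63.7 CPM on the normal diet and 78, 69.3, 83, 103 and 98.3 CPM on the lacking diet (log2 fold change 0.24, SE 0.13, 95% interval 0.981- to 1.42-fold). Mice 246 and 259 on the lacking diet lay above every normal-diet mouse, and the other 3 lay within the normal range. The mean log2 CPM of the list was 5.57 to 5.85 on the normal diet and 5.59 to 6.17 on the lacking diet. Without mouse 246 the median was 0.05, and without mouse 241 it was 0.23. It was 0.02 in KO prefrontal cortex (9 of 16 higher), 0.02 in WT striatum (10 of 16) and 0.06 in WT hippocampus (12 of 16), both WT regions from the same mice.

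Markers of the other cell types stayed closer to 0 or had few members. Astrocyte markers had 3 of 13 higher (median -0.04), with Gfap, the astrocyte filament, at 49.5, 60.4, 43.8, 42.1 and 55.1 CPM against 41.7, 30, 47.5, 39.3 and 51.1 CPM (log2 fold change -0.26, SE 0.13, 95% interval 0.69- to 1.01-fold) and Slc4a4 at -0.12. Without mouse 317 the astrocyte median was 0.0075. Excitatory neuron markers had 8 of 14 higher (median 0.0083, Bcl11b 0.21, Foxp2 0.20), and inhibitory neuron markers 6 of 17 (median -0.04, Crh -0.24, Lamp5 -0.10). Microglial markers had 10 of 15 higher (median 0.02, Laptm5 0.16, Cx3cr1 0.16). Oligodendrocyte precursor markers had 5 of 9 higher (median 0.0047, Olig2 0.20, Cspg4 -0.19), and endothelial and mural markers 7 of 15 (median -0.02, Vwf -0.31, Pecam1 -0.13). Of the choroid plexus and ependyma markers 5 of 9 could be tested (Kcnj13 -0.89, Prlr 0.61), and Tmem212 was at 0 in every library. Blood markers had 2 of 3 tested genes higher (Hbb-bs 0.24, Hbb-bt -0.22). Markers of striatal projection neurons had 7 of 9 higher (median 0.03), with Pde10a at 0.28 and Drd2 at 0.64. Without mouse 241 the microglial median was 0.07 with 11 of 15 higher, the excitatory neuron median 0.02, the inhibitory neuron median -0.06, the precursor median 0.02, the endothelial and mural median -0.0011 and the choroid plexus median 0.10 (-0.02 with it). Leaving out that mouse, 5 of 9 striatal projection neuron markers were higher, and the blood median was 0.30 (0.22 with it).

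**Figure D5:**
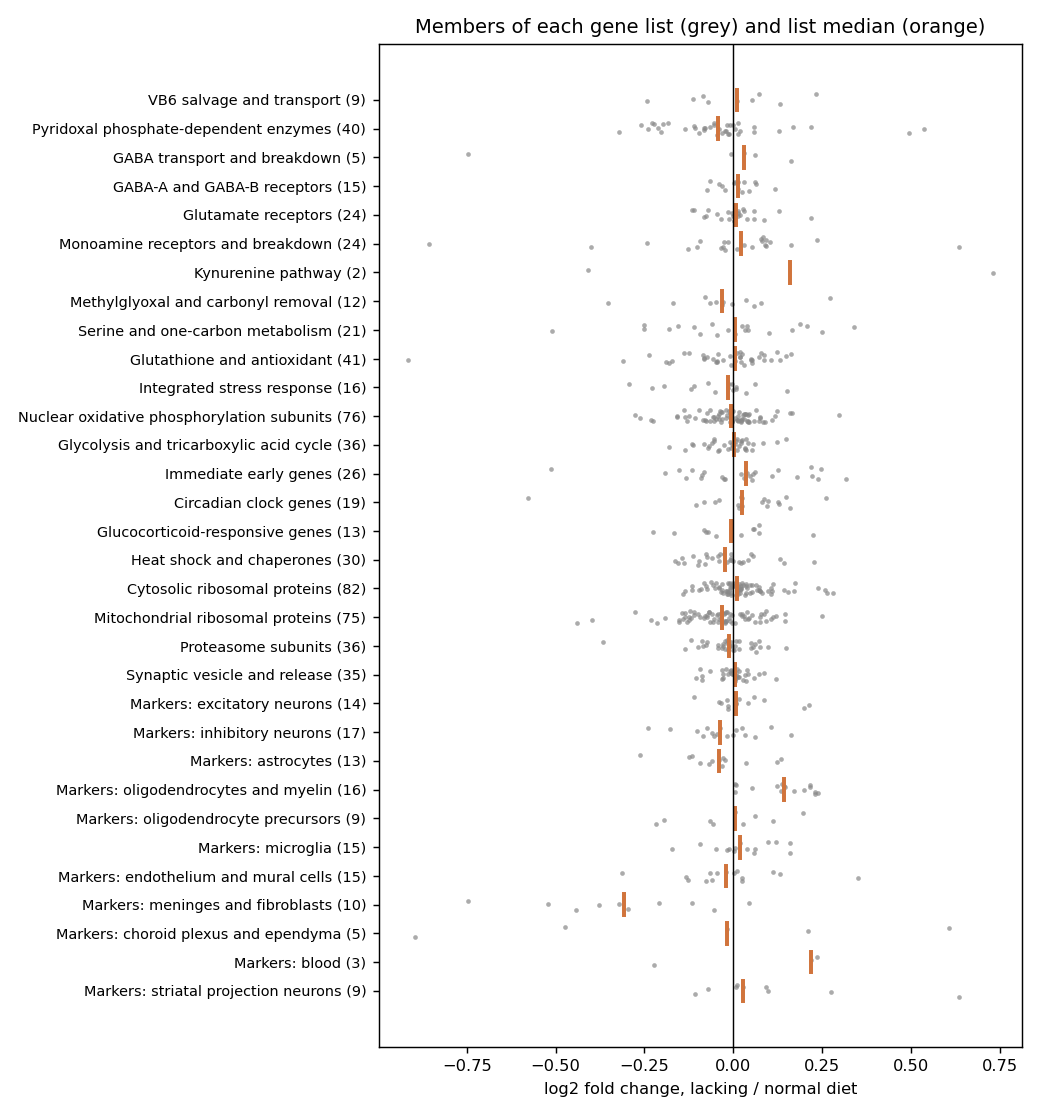
log2 fold change (lacking over normal diet) of each tested member of 32 gene lists (grey points, number tested in brackets) and the list median (orange bar). Medians lie near 0 except in small lists, in myelin markers (0.14) and in markers of meninges and fibroblasts (-0.31).

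Over the 32 lists, 751 different genes were tested, 0 passed the adjusted edgeR threshold, 11 were at an unadjusted p under 0.05 (2.27% over all genes) and 675 (89.9%, against 83.6% of all genes) were bounded within 1.5-fold. The 17 not bounded within 2-fold included Foxj1, Mrps36 and Slc1a5 and, among the genes described above, Nfil3, Slc6a13, Gpx7, Ier2, Ido2, Tdo2, Kcnj13, Prlr, Col3a1, Drd2, Htr6, Gcat and Gpt. Of the 98 genes named by rule, 49 overlap another gene and, in 10 (Emd, Nat8f4, Gcat, Gpx4, Rps13, Rpl10a, Psmb5, Igf2, Hbb-bs and Hbb-bt), over 10% of 75-base stretches occur elsewhere, so those counts are uncertain.

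The diet effect was also set against the same diet contrast in other samples. In KO prefrontal cortex 686 of 13223 genes (5.19%) were at an unadjusted edgeR p under 0.05, in WT striatum 387 of 13311 (2.91%) and in WT hippocampus 540 of 13393 (4.03%), and 0 passed the adjusted threshold in any of them. The 20 leading genes of WT prefrontal cortex had a median absolute log2 fold change of 0.49 there, against 0.12 in KO prefrontal cortex, 0.14 in WT striatum and, for the 19 tested, 0.12 in WT hippocampus. They were picked by their p in WT prefrontal cortex, so a larger change there follows from that choice and does not show an effect particular to it. In KO prefrontal cortex 12 of the 20 had the same sign, in WT striatum 13 of 20 and in WT hippocampus 14 of 19, the last 2 from the same mice. Over all genes tested in both contrasts, the Spearman correlation of log2 fold changes with WT prefrontal cortex was -0.01, 0.08 and 0.07 in the same order. Of the 20 leading genes 0 were at an unadjusted p under 0.05 in any of the 3. Col27a1, for example, had 0.12, 0.22 and 0.06 in KO prefrontal cortex, WT striatum and WT hippocampus, and Atad2b had 0.12, 0.08 and -0.10. Pdxk had -0.01, -0.0029 and 0.09 and Gad1 had -0.03, -0.01 and -0.06.

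Tests of the difference itself gave no gene past the adjusted threshold for a diet effect particular to WT prefrontal cortex. Against WT striatum, 0 of 13663 genes passed the adjusted edgeR threshold and 277 (2.03%) were at an unadjusted p under 0.05. Against WT hippocampus the counts were 0 and 312 (2.28%), and against KO prefrontal cortex 0 of 13223 and 419 (3.17%). The last difference is also one between batch labels, and the 2 cannot be told apart. The median SE of a difference in log2 fold change was 0.19 against each WT region and 0.17 against KO prefrontal cortex. No margin was tested for these differences, so their absence is not shown.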

How the data were processed

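Poly(A) RNA of 10 WT prefrontal cortex libraries (5 per diet) was compared, each from a separate mouse. The authors deposited raw counts per gene and RPKM values of the same 21999 genes; reads were aligned with STAR 2.7.1a, counted with HTSeq 0.9.1 and referred to mm10, per the submitters' processing notes. Aligner settings, annotation and strand setting are not given in the sources used here. The deposited RPKM values matched the counts divided by gene length and column total.

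Counts were fitted in R 4.3.3 with edgeR 4.0.16 on all 20 prefrontal libraries (WT and KO on both diets), which share 1 estimate of spread, with TMM factors, filterByExpr (minimum count 10, minimum total 15) and quasi-likelihood F-tests, two-sided, BH-adjusted at 0.05. Margins of 5/4-, 1.5- and 2-fold were tested by 2 one-sided tests from the same fit. The steps were tested on simulated data. Region differences used the 30 WT libraries. Alternatives were DESeq2 1.42.0, limma 3.58.1 on log2(RPKM + 1), other filters and scalings, RIN as a covariate, WT libraries alone, robust moderation and leaving out each mouse. Replicates differed by more than counting error (chi-square per gene 3.24 to 20.7 over 20 pairs), and none was a copy.

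Named genes were the 10 higher and 10 lower genes with the smallest p at a mean of at least 1 CPM, all tested VB6 salvage genes, the 6 pyridoxal phosphate enzymes with the smallest p plus Gad1, Gad2, Ddc and Abat, the 2 members with the smallest p of each other list, and Glo1; a few genes that the rule names are not reported here. Others, such as further meningeal markers and genes not bounded within 2-fold, were named after their values were seen. The comparison, the 32 lists and the rule were chosen with earlier results of these data known. Positions and overlaps are from RefSeq on GRCm38.p6.

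The same mouse gave all 3 regions, so mouse numbers pair libraries across regions. Deviations of the same mouse from its group means hardly correlated on average (mean r = 0.0159 over 30 pairs, lowest -0.35). The mean between different mice was -0.00292, a value tied to the first because deviations within a group cancel. Within the prefrontal cortex the diets used different mice and no pairing exists.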

Additional observations from a re-analysis of the deposited data

Results flagged for a closer look

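Among 150 groups of 5 mice (a gene or list mean in 1 diet), 6 held a mouse far from the other 4; chance flags about 1 in 20 groups. Pls1 was at 19 CPM in mouse 246 on the lacking diet, where the others lay between 13 and 14.8 CPM. Gcat was at 2.71 CPM in mouse 273 on the normal diet, against 1.23 to 1.56 CPM in the others. The mean log2 CPM of the GABA receptor genes was 7.68 in mouse 241 on the lacking diet, against 7.48 to 7.53, and that of the proteasome genes was 5.29 in the same mouse, against 5.42 to 5.45. The mean log2 CPM of integrated stress response genes was 4.44 in mouse 273 on the normal diet, against 4.32 to 4.33. Endothelial and mural markers had a mean log2 CPM of 4.23 in mouse 286 on the normal diet, against 4.45 to 4.5.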

How the results depend on the processing

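No gene passed the BH-adjusted threshold in any alternative run (edgeR, DESeq2 or limma). At an unadjusted p under 0.05, the diet contrast gave 497 genes without the low-count filter and 532 in the 9 WT libraries without mouse 241, and from 249 (without mouse 259) to 461 (without mouse 241) when each mouse was left out, with 0 past BH each time. Genes bounded within 1.5-fold numbered 10657 to 10800 with a mouse left out; a 5/4-fold margin gave 6664 and Bonferroni-level intervals 3893. On log2(RPKM + 1), which shrinks low genes, 13113 were so bounded. With a mouse left out, unadjusted calls for the difference from striatum ran from 185 (without mouse 283) to 503 (without mouse 226; 445 without mouse 317), from hippocampus from 241 (without mouse 241) to 823 (without mouse 226), and from KO from 307 (without mouse 283) to 558 (without KO mouse 244), with 0 to 0 past BH; without the filter the last 2 gave 487 and 631. With the mouse as a block for the pairing across regions, striatum gave 0 and 261 and hippocampus 0 and 295. The difference in median VB6 level was -56.2 ng/µl (exact permutation p = 0.119). The VB6 ranges did not overlap, and exchanging a mouse between such groups can leave their medians nearly unchanged. The test of medians therefore cannot weigh this separation. Of 98 named genes 11 changed sign in some alternative listed in the processing, as did 23 of 32 list medians. The leading 20 kept their sign and an unadjusted p under 0.05, which their choice by p in these same libraries favours. The causes of the shifts between alternatives were not tested. Of the 320 genes under 1 CPM, 0 were bounded within 1.5-fold; the part of depth in this was not tested.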

Other observations

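In the fit of the 9 WT libraries without mouse 241, chosen after seeing the data, the 3 genes with the smallest p were all lower on the lacking diet. After Igf2 came Atad2b, with a log2 fold change of -0.45 (SE 0.11), and Mrc1, the macrophage mannose receptor, with -0.62 (SE 0.15), both with an edgeR adjusted p of 1.0. In the fit of all prefrontal libraries, mouse 241 included, Mrc1 was at -0.50.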
